A study of Drosophila melanogaster with 2 samples.

Results

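The vacuolar ATPase (V-ATPase) subunit genes of Drosophila melanogaster were examined for binding of Jra, the fly Jun protein, at their promoters. The members are the protein-coding genes whose symbol in the Ensembl gene models begins with Vha, which gave 33 of 13945 protein-coding genes on the chromosome arms. Chromatin came from whole wandering larvae of the last instar, with males and females pooled, from a transgenic line that carries Jra tagged with GFP at its C terminus, and was precipitated with an antibody to GFP for ChIP-seq. There was 1 group, with 2 biological replicates numbered 1 and 3, and no second condition. The labels name a possible control experiment, which was not analysed here. The tagged protein stands for Jra throughout, and whole larvae average over all tissues.

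The V-ATPase is a rotary proton pump that acidifies lysosomes, endosomes and secretory vesicles and, in some insect epithelia, energises ion transport across the plasma membrane. Its cytosolic V1 sector hydrolyses ATP and turns a central rotor, and its membrane Vo sector carries protons through a ring of proteolipids. In flies several subunits are encoded by more than 1 gene, with a broadly used main copy and further copies of narrower expression, some of them known mainly from testis. Jra pairs with the Fos protein kay to form the transcription factor AP-1, an effector of the JNK stress pathway.

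A promoter peak was counted where the summit of a region lay within 1000 bp of an annotated transcription start site (TSS) of a gene. Of the deposited lists, the one kept by the irreproducible discovery rate (IDR), which asks for regions ranked alike in both replicates, had 3803 peaks on the arms, and these were the strongest regions of the pooled list. The pooled list and each replicate list also include background regions, with 29970 to 30000 regions each on the arms. Signal is the value the authors' peak caller gave each region and is scaled separately in every list, so ranks are given beside it. The lowest signal listed was 70.6 in the IDR list, 16.0 in the pooled list, 10.01 in replicate 1 and 8.73 in replicate 3. Read depth is unknown, and a gene with no listed region may still be bound below these limits. No member was left out for low values.

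Among the V-ATPase genes, promoter peaks lay at main and single-copy subunit genes and at subunit e genes, and at none of the paralogues. The IDR list placed a promoter summit at 9 of 33 members (27.3%), beside 20.4% of all protein-coding genes (2839 of 13945), so the family as a whole was not far from the background. The split within the family was wider. Of 13 main or single-copy members, 7 had an IDR promoter summit (53.8%), against 0 of 16 paralogues and 2 of 4 subunit e genes, for which no main copy was assigned. The 0 of 16 stands beside the 20.4% over all genes, and no test was run, because genes are not replicates of a condition. The classes came from general knowledge and were chosen with earlier results of these data known, so the split is not an independent finding. If a peak counts only for the gene with the nearest TSS, the counts are 4 of 13 and 0 of 16, beside 15% of all genes.

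**Figure D1:**
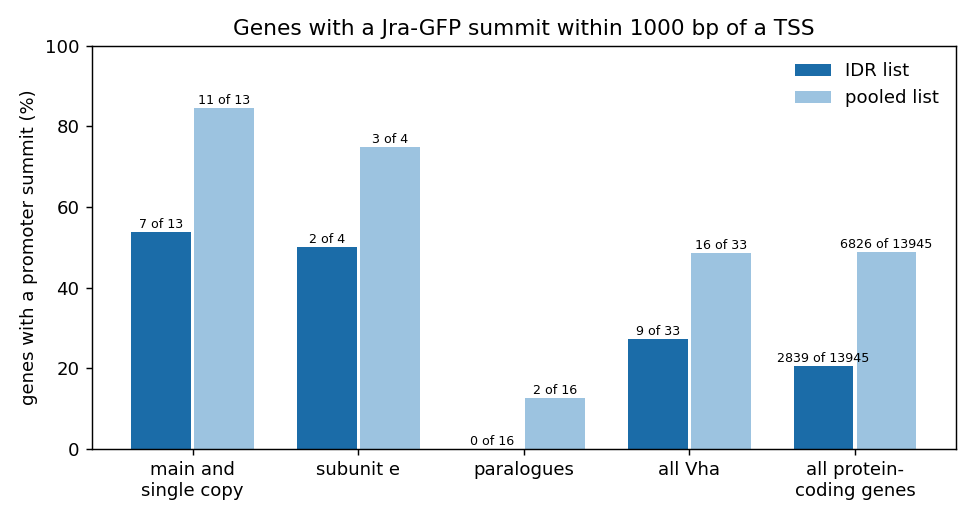
Bars give the percentage of genes with a promoter summit (1000 bp or less from a TSS) in the IDR list and in the pooled list, background regions included, and the number of genes stands over each bar. Main and single-copy genes reached 7 of 13 in the IDR list and paralogues 0 of 16, beside 2839 of 13945 protein-coding genes. The classes were chosen with earlier results of these data known.

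The same order appeared in the longer lists. The pooled list held a promoter region for 16 of 33 members, at 48.9% of all genes, and these were 11 of 13 main or single-copy genes, 2 of 16 paralogues and 3 of 4 subunit e genes. In replicate 1 a region was listed for 19 of 33 members (52.7% of all genes), with all 13 main or single-copy genes and 3 of 16 paralogues among them. In replicate 3 there were 16 of 33 (51% of all genes), with 11 of 13 and 2 of 16. Taking genes without a region as lowest, the median main or single-copy gene had a pooled signal of 80.9, while the median paralogue and the median protein-coding gene had no region listed.

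**Figure D2:**
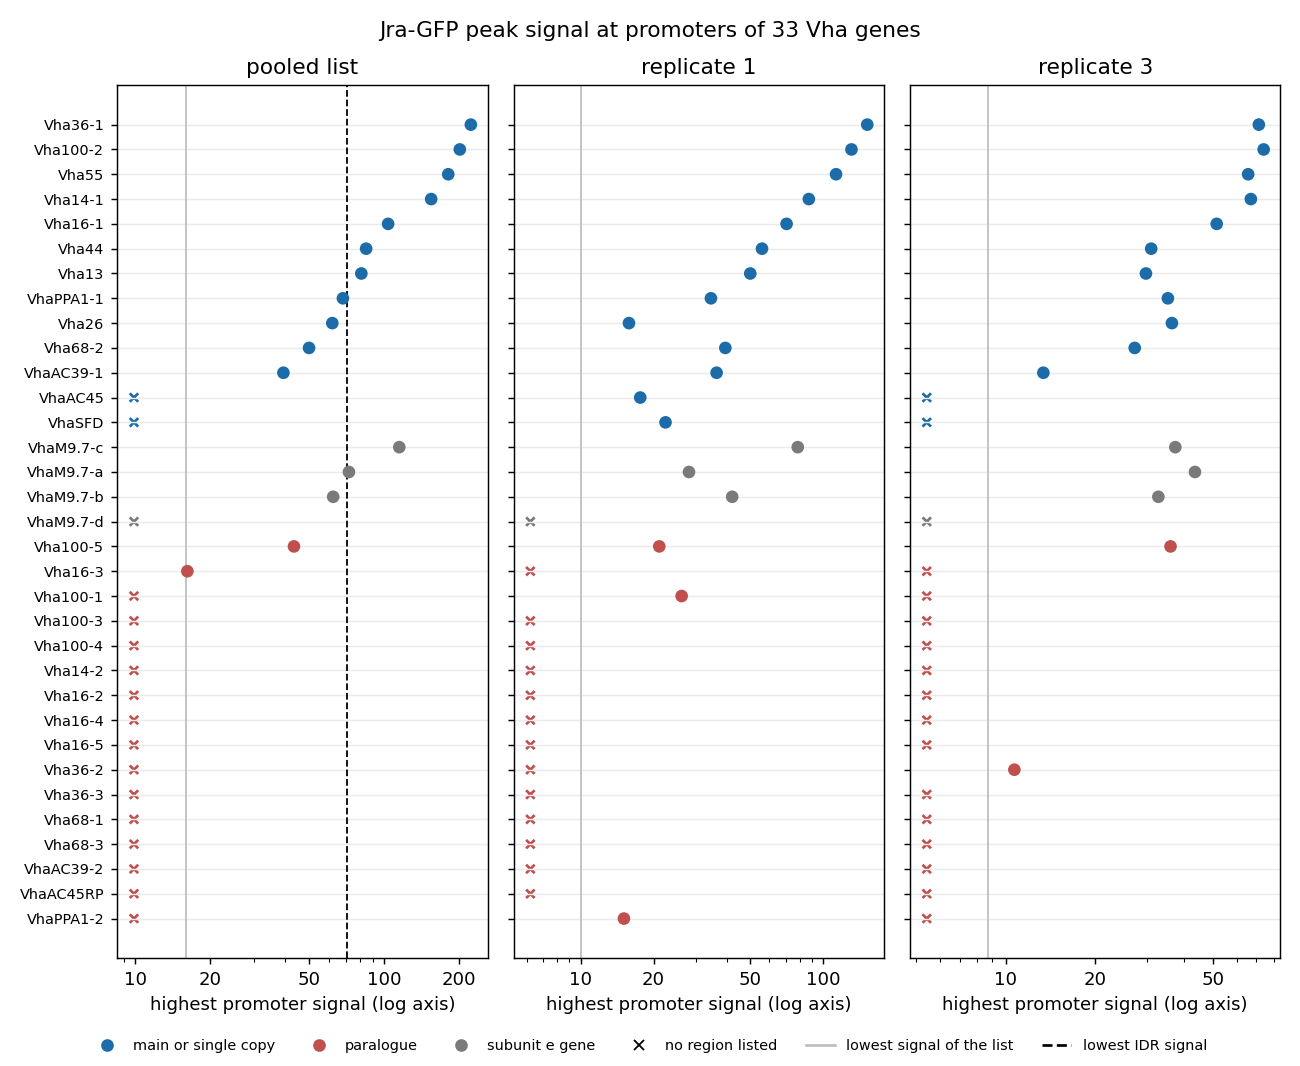
Each point is the highest signal of a region with its summit within 1000 bp of a TSS of the gene named at the left, in the pooled list, replicate 1 and replicate 3 (log axes, each list on its own scale). Crosses mark genes with no listed region, the grey lines the lowest signal of each list, and the dashed line the lowest IDR signal of 70.6. Most red points, the paralogues, sit at the crosses in all 3 panels.

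Sequences are shown for a selection of peaks, to let the letters at the summits be read beside the known sites searched for. Each window is 141 bases of the Release 6 (dm6) genome around the summit, read 5′ to 3′ on the strand of the gene. Capitals mark the summit base in the windows of VhaM9.7-c, Vha100-2 and the stronger Vha55 peak, the AP-1 site TGACTCA in the weaker Vha55 peak, and 7 bases of the DNA replication-related element (DRE), ATCGATA or its reverse complement, at VhaM9.7-a and Vha13. In the Vha68-2 window, from a region of the pooled list that is not in the IDR list, they mark TCACGTGA, the core of the site that MiT/TFE factors bind at lysosomal genes. That region is weak, at pooled rank 20071, and overlaps no replicate 1 region. Its TCACGTGA lies 54 bp from the summit.
Vha55, chr3R:12627809-12627949, minus strand, IDR signal 181: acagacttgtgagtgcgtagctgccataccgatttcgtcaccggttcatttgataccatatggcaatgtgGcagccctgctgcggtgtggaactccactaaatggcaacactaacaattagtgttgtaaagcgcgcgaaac
Vha55, chr3R:12628664-12628804, minus strand, IDR signal 81.2: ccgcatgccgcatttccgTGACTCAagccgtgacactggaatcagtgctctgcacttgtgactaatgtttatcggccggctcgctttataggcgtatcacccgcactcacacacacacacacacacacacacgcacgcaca
Vha100-2, chr3R:18397184-18397324, minus strand, IDR signal 201: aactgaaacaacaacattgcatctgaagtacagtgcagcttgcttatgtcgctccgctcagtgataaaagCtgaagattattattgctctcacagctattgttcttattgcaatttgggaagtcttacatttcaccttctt
Vha13, chr3R:19644380-19644520, minus strand, IDR signal 80.9: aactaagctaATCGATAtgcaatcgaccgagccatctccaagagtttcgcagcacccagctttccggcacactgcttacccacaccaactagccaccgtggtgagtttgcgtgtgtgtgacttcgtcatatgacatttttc
VhaM9.7-c, chr3L:4186873-4187013, minus strand, IDR signal 115: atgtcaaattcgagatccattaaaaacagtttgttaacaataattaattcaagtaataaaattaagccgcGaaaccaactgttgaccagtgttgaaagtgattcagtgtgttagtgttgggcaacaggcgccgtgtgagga
VhaM9.7-a, chr3L:4262508-4262648, plus strand, IDR signal 72.2: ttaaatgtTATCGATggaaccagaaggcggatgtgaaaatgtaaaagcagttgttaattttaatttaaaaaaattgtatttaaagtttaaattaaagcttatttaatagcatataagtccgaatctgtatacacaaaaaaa
Vha68-2, chr2L:12975182-12975322, plus strand, pooled signal 21.997: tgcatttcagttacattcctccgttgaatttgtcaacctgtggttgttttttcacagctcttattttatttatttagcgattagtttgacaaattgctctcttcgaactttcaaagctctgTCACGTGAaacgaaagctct

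The AP-1 and DRE words searched for were missing from most of the peaks, as they were from most of the strongest IDR promoter peaks of all genes. A word was counted only where all its bases lay in the window. Within 50 bp of the summit, 0 of the 12 IDR promoter peaks of the family held an exact AP-1 site (TGACTCA or TGAGTCA on either strand). That stands beside 3.41% of 1963 IDR promoter peaks over all genes. The 1963 are the strongest such peak of each gene, without duplicates, and are called all IDR promoter peaks below. The 12 also include the weaker second peaks of Vha16-1, Vha55 and Vha100-2, so the sets are not alike. Within 100 bp an exact AP-1 site lay in 1 of the 12 (8.33%), beside 5.25% of all IDR promoter peaks. It was the printed site at Vha55, in a weaker second peak of a kind left out of the 1963. The site is centred 49 bp from that summit, of signal 81.2, and so runs over the edge of the narrower window. The exact DRE, TATCGATA, was in none of the 12 within 50 or 100 bp, beside 5.71% and 9.78% of all IDR promoter peaks. The shorter ATCGATA, which overlaps the DRE, lay within 50 bp of the Vha36-1 summit, at a distance of 2 bp, and within 100 bp of the VhaM9.7-a and Vha13 summits. That is 1 of 12 within 50 bp (8.33%, beside 10.7% of all IDR promoter peaks) and 3 of 12 within 100 bp (25%, beside 17.2%). Each of these words was thus missing from at least 9 of the 12 windows, which does not set the family apart from other promoter peaks. No match says only that the letters are not in the window.

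TCACGTGA was rare at promoters and present at a pair of V-ATPase genes. In the 301 bases from 250 before to 50 after a TSS it lay at 2 of 33 members (6.06%), Vha44 and Vha68-2, beside 28 of 13945 protein-coding genes (0.201%). At Vha44 it lay 42 bp from the IDR summit, in 1 of 12 family peaks (8.33%) beside 0.102% of all IDR promoter peaks. Its core CACGTG, counted with or without the outer bases, lay at 5 of 33 member promoters (15.2%) beside 5.34% of all promoters. The other 3 were Vha55, VhaM9.7-d and VhaAC45RP, of which only Vha55 had a peak. The AP-1 and DRE words were not more common at member promoters. In the same 301 bases an exact AP-1 site lay at 1 of 33 members (3.03%), Vha36-2, beside 3.44% of all protein-coding genes. The exact DRE lay at 2 of 33 (6.06%), VhaSFD and Vha55, beside 10.2%. Base composition of the 12 windows of 101 bases was 48.5% G or C at the median, from 23.8% at VhaM9.7-a to 63.4% at Vha44. The median was 37.6% over the 1963 peaks, which hold only the strongest IDR promoter peak of each gene.

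In the V1 head, the B subunit gene had IDR peaks and the A subunit genes had none. Vha55, the only gene for the nucleotide-binding B subunit, had a promoter signal of 113 in replicate 1 (rank 507), 65.6 in replicate 3 (rank 1071) and 181 in the pooled list (rank 606 of 29970). Both replicates placed it high. Its summit lay 50 bp upstream of a TSS, and its second IDR peak, of signal 81.2, lay 905 bp upstream of its TSS and nearer to Snx3, a sorting nexin gene on the opposite strand. Vha68-2, the main gene for the catalytic A subunit, had 39.5 in replicate 1, 27.2 in replicate 3 and 49.9 in the pooled list, under the IDR limit. Its copies Vha68-3 and Vha68-1 had no promoter region in any list. The same IDR summit was the nearest to each A subunit gene, at 106979 bp from Vha68-2, 103595 bp from Vha68-3 and 78274 bp from Vha68-1. The A subunit cluster on 2L thus had no IDR peak nearer than that, and such distances were not compared over all genes. Vha68-1 is also widely expressed, and counting it with the main copies gives 7 of 14 against 0 of 15.

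Both main genes of the central rotor had an IDR promoter summit and their copies had none. Vha36-1, the main D subunit gene, had 152 in replicate 1 (rank 230), 71.3 in replicate 3 (rank 894) and 223 in the pooled list (rank 353), the highest promoter value of the family in replicate 1 and the pooled list. In replicate 3 Vha100-2 was higher. Its summit at 2R 15541391 lay 44 bp upstream of its TSS and 28 bp from that of CG8187, on the opposite strand. By pooled signal at the promoter it ranked 350 of 13945 genes. Vha36-3 had no promoter region in any list, and Vha36-2 had 1 region of signal 10.7 in replicate 3, near the lowest value listed. An IDR peak (75.6) 2140 bp downstream of the Vha36-2 TSS lay 24 bp from a TSS of the calmodulin gene Cam. Vha14-1, the main F subunit gene, had 87.3 in replicate 1, 67.0 in replicate 3 and 154 in the pooled list (rank 867). That summit lay 850 bp downstream of the Vha14-1 TSS, beyond the end of this gene of 659 bp, and 278 bp from the TSS of Gmppa, on the same strand. The region 302 bp upstream of Vha14-1, between it and CG30091 on the opposite strand, had a pooled signal of 43.6, so at its own start the gene was under the IDR limit. Vha14-2, the other F subunit gene, had no promoter region in any list.

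The genes of the stalks and of V1 regulation were weaker. Vha44 encodes the C subunit, which takes part in the reversible assembly of V1 and Vo, and had 56.0 in replicate 1, 30.9 in replicate 3 and 84.6 in the pooled list. Its summit lay 87 bp upstream of its TSS and 36 bp from that of Hmgs, the HMG-CoA synthase gene, on the opposite strand. Vha13, for the peripheral stalk subunit G, had 50.1, 29.7 and 80.9 in the same order, with a summit 64 bp upstream. A further IDR peak (89.3) in the Vha13 gene body lay 453 bp from a TSS of its neighbour subdued. Vha26, for stalk subunit E, had 15.8 in replicate 1 (rank 15794) and 36.3 in replicate 3 (rank 3705), and 61.9 in the pooled list. The replicates placed Vha26 far apart, and its summit lay 18 bp upstream of its TSS and 286 bp from that of noi, on the opposite strand. VhaSFD, for the regulatory H subunit, had 22.4 in replicate 1 and no promoter region in replicate 3 or the pooled list. A strong IDR peak (305, rank 147) had its summit beyond the 3′ end of VhaSFD, near the far edge of the 2000 bp flank searched. It lay within 1000 bp of a TSS of the cytochrome c gene Cyt-c-p and 6914 bp from the VhaSFD TSS.

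In the Vo sector, the peak at subunit a lay at Vha100-2 and not at the other copies. Vha100-2 had 131 in replicate 1 (rank 347), 74.0 in replicate 3 (rank 814) and 201 in the pooled list (rank 477). This summit, at 3R 18397254, lay inside the gene, 326 bp upstream of its inner TSS and 259 bp from a TSS of Vti1b, a SNARE gene that overlaps it on the opposite strand. A second IDR peak (84.9) lay 157 bp upstream of the outer TSS. Vha100-4 follows Vha100-2 on the same strand after a gap of 517 bp and had no promoter region in any list. Vha100-3 had none either, and Vha100-1, the copy of neurons, had 26.1 in replicate 1 alone. Vha100-5 had 21.1 in replicate 1 (rank 10360), 35.9 in replicate 3 (rank 3793) and 43.4 in the pooled list. It had the highest signal of the paralogues in the pooled list and replicate 3, below Vha100-1 in replicate 1, and was the only one to enter the 3803 strongest regions of a replicate, and did so in replicate 3 alone.

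**Figure D3:**
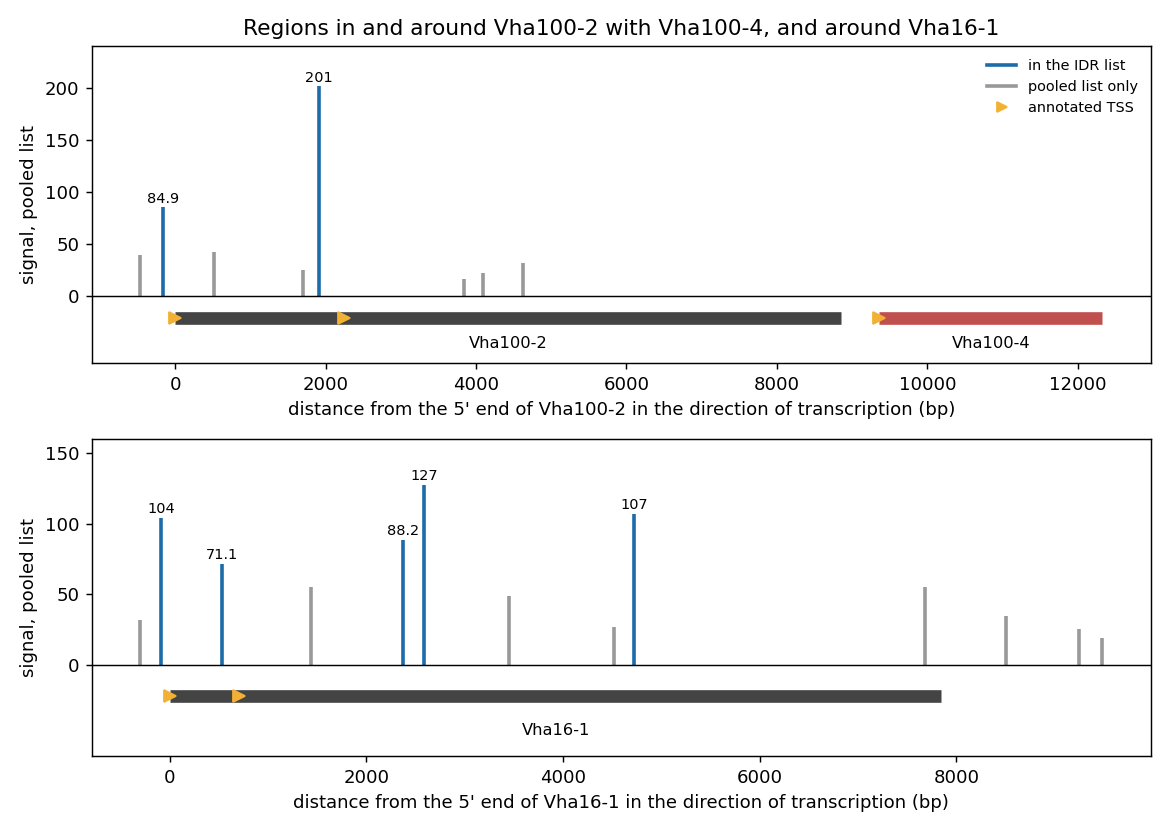
Vertical lines give the pooled signal of each region at its summit, blue for IDR peaks and grey for others, against distance in bp from the 5′ end of Vha100-2 (top) and Vha16-1 (bottom), with gene bodies as bars below and TSSs as arrowheads. Vha100-2 holds peaks of 201 and 84.9 near its TSSs and Vha100-4 holds none, while Vha16-1 holds 5 peaks along its first part.

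The proteolipid ring genes differed in how the signal was spread. Vha16-1, the main c subunit gene, had its highest promoter signal at 70.7 in replicate 1, 51.4 in replicate 3 and 104 in the pooled list (rank 1923). The replicate 3 value belongs to the inner peak, and at the peak of 104 replicate 3 had 35.5 (rank 3875). It was the member with the most IDR peaks, 5 in all. A pair lay at its TSSs (104, 91 bp upstream, and 71.1, 170 bp upstream of the inner TSS), and 3 lay in introns 1664 to 4014 bp downstream of the inner TSS, with signals of 88.2, 127 and 107. The first and second of these overlap and share 1 region in each replicate list. The highest signal in the gene was thus intronic. Of the other c subunit genes, Vha16-3 had a region of 16.2 in the pooled list, close to the lowest listed, and Vha16-2, Vha16-4 and Vha16-5 had none in any list. VhaPPA1-1, the main gene for the related ring subunit c″, had 34.5 in replicate 1, 35.2 in replicate 3 and 68.3 in the pooled list (rank 4002). It was the member just below the IDR limit, with VhaM9.7-a, at 72.2 (rank 3655), just above it. VhaPPA1-2, which lies 2052 bp from it, had 15.1 in replicate 1 alone.

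The remaining Vo and accessory genes mostly stayed under the IDR limit. VhaAC39-1, the main gene for subunit d, which couples rotor and ring, had 36.4 in replicate 1 (rank 4630), 13.4 in replicate 3 (rank 17724) and 39.4 in the pooled list, and its copy VhaAC39-2 had no promoter region in any list. Among the small subunit e genes, VhaM9.7-c had 78.6 in replicate 1, 37.3 in replicate 3 and 115 in the pooled list (rank 1566), with its summit 78 bp upstream. VhaM9.7-a had 28.0, 43.4 and 72.2 in the same order, and VhaM9.7-b, which faces the cytochrome c oxidase gene COX8, had 42.2, 32.7 and 62.4. No list held a promoter region for VhaM9.7-d. VhaAC45, the accessory subunit orthologous to human ATP6AP1, had 17.6 in replicate 1 alone, and VhaAC45RP had none. By sector, 5 of 13 V1 genes, 4 of 18 Vo genes and 0 of 2 accessory genes had an IDR promoter summit. With the paralogues counted, the shares of 38.5% for V1 and 22.2% for Vo stand beside 20.4% of all genes, which puts Vo near the background. No paralogue of either sector had an IDR promoter summit, and the sectors were not compared without the paralogues.

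The 5 copies classed here, from general knowledge, as mainly of testis were Vha68-3, Vha36-2, Vha14-2, VhaPPA1-2 and VhaAC39-2. None of these 5 had a promoter region in the pooled list, beside 48.9% of all protein-coding genes that had such a region. In the replicate lists the 5 copies held only the regions of Vha36-2 and VhaPPA1-2 given above, each in 1 replicate. In all, 12 members had no promoter region in any of the pooled and replicate lists, beside 39.4% of all protein-coding genes (5497 of 13945). That is 36.4% of the family, close to the share of all genes, and 11 of the 12 were paralogues (68.8% of the 16).

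Most V-ATPase peaks were shared with a neighbouring gene. Of the 9 members with an IDR promoter summit, 7 shared their strongest one with another protein-coding gene (77.8%), beside 60.6% of all genes with an IDR promoter summit. The neighbour was on the opposite strand for 6 of the 7, a count that was not made over all genes. They were CG8187, Vti1b, Snx3, Hmgs, the nucleoporin gene Nup58 and CG11586, with Gmppa on the same strand. Only VhaM9.7-c and Vha16-1 had theirs to themselves. The strongest IDR promoter summit was nearest to the member's own TSS for 4 of the 9 (44.4%), beside 68.3% of all genes with such a summit. If a peak counts only for the gene with the nearest TSS, 5 of 33 members remain, about the share of all genes (15%). They are Vha55, Vha13, Vha16-1, VhaM9.7-c and, through its weaker peak of 84.9, Vha100-2. Among them are 4 of 13 main or single-copy genes and 0 of 16 paralogues. The peaks do not tell which of the facing genes they belong to.

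**Figure D4:**
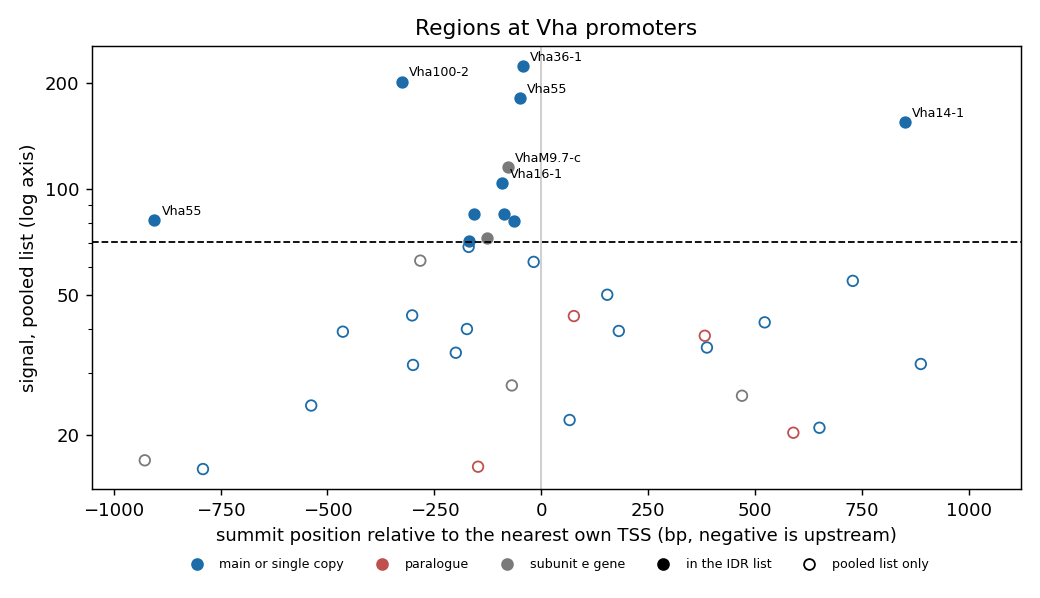
Each point is a region of the pooled list at a member promoter, placed by its summit relative to the nearest TSS of that gene (bp, negative upstream) and by pooled signal (log axis), filled where it is an IDR peak. Of 12 IDR peaks, 11 lie upstream, and 9 of these within 200 bp of the TSS, while Vha14-1 at 850 bp is the exception downstream. The same counts were not made over all IDR promoter peaks.

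Summits lay close to the annotated starts. The median distance from the strongest IDR promoter summit to the nearest TSS of the gene was 87 bp for the 9 members and 147 bp for all 2839 genes. It was 250 bp or less for 7 of the 9 (77.8%), beside 68.1% of all genes with an IDR promoter summit. Of the 12 IDR peaks at member promoters, 11 were upstream of the nearest TSS of the member, and 9 of them lay within 200 bp. The upstream counts were not made over all IDR promoter peaks, so they cannot be called particular to the family. Members with peaks included short genes such as Vha14-1 (659 bp) and VhaM9.7-a (760 bp) and long ones such as Vha44 (11825 bp). The main and single-copy genes were longer (median 3594 bp) than the paralogues (1599 bp). A single TSS was annotated for 8 of 13 against 13 of 16, so the former more often had several TSSs to search. With 1 TSS counted per gene, 7 of 13 main or single-copy genes and 0 of 16 paralogues had an IDR promoter summit, beside 18.8% of all genes. The part of gene length in the split was not tested.

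Members differed in how close the ranks of the replicates were. The 5 main or single-copy genes of highest pooled signal, Vha36-1, Vha100-2, Vha55, Vha14-1 and Vha16-1, ranked between 230 and 1459 in replicate 1 and between 814 and 1788 in replicate 3, each by its highest promoter region. For Vha16-1 the replicates had different highest regions, and at its strongest pooled promoter peak replicate 3 ranked 3875. VhaM9.7-c, of higher pooled signal than Vha16-1, ranked 1175 and 3505. Among members under the IDR limit the ranks were close for VhaM9.7-b (3665 and 4478) and VhaPPA1-1 (5022 and 3929), and far apart for Vha26 and VhaAC39-1. Vha44 and Vha13 were among the 3803 strongest regions in replicate 1 and not in replicate 3, and VhaM9.7-a was so in replicate 3 and not in replicate 1. At the strongest promoter peak of each of the 9 members of the IDR list, the rank was better in replicate 1 for 8 and in replicate 3 for 1. With the top 3803 regions of replicate 1 in place of the IDR list, 9 of 33 members had a promoter summit (21.2% of all genes). With those of replicate 3 there were also 9 (20.4% of all genes). Of these, 8 in replicate 1 and 7 in replicate 3 were among the 9 members of the IDR list. Replicate 1 adds VhaM9.7-b, and replicate 3 adds Vha26 and Vha100-5.

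**Figure D5:**
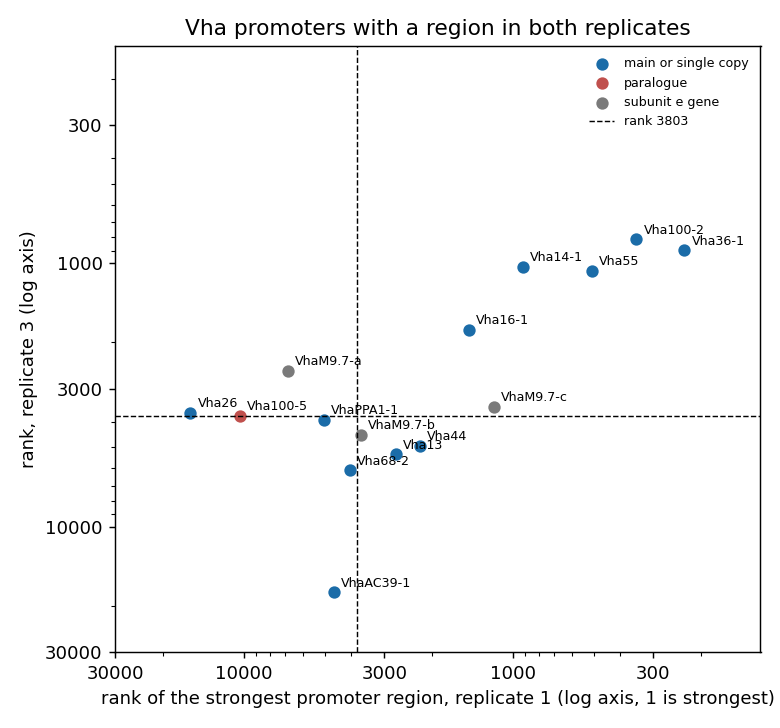
Points are the members with a promoter region in both replicates, placed by the rank of the strongest one in replicate 1 and in replicate 3 (log axes, strongest at the upper right), with dashed lines at rank 3803. The 5 main or single-copy genes of highest pooled signal lie inside both lines, whereas Vha26 and VhaAC39-1 rank low in 1 of the replicates. For Vha16-1 the ranks come from different peaks, and at its strongest pooled promoter peak replicate 3 ranked 3875, outside the line.

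Genes for V-ATPase partners and regulators and for lysosomal proteins also held promoter peaks. Of 14 genes for partners and regulators of the V-ATPase, 6 had an IDR promoter summit (42.9%, beside 20.4% of all genes). The strongest was Lamtor3, for a subunit of the Ragulator complex, which links the V-ATPase to TOR signalling, with 148 in replicate 1, 144 in replicate 3 and 295 in the pooled list. The others, by pooled signal, were mtd, of the OXR1/NCOA7 family (132), the rabconnectin gene Rbcn-3A (111), Lamtor5 (89.3), the Rag GTPase gene RagA-B (86.4) and ATP6AP2, an accessory protein of the V-ATPase (85.0). Mitf, the fly MiT/TFE gene, had 26.4 in replicate 1, 51.9 in replicate 3 and 56.3 in the pooled list, under the IDR limit. Of 17 genes for lysosomal hydrolases and membrane proteins, 8 had an IDR promoter summit (47.1%). These were the hexosaminidase gene Hexo2 (222), the palmitoyl-protein thioesterase gene Ppt1 (156), the lysosomal transporter gene spin (115), the cysteine protease gene CtsB (102), the saposin precursor gene Sap-r (101), Hexo1 (91.5), cathD, for an aspartyl protease (81.5), and Cln7, for a lysosomal membrane protein (76.7). The remaining genes of both lists had no IDR promoter summit, and the lists were drawn up with earlier results of these data known. Whether these peaks were shared with a neighbour, or nearer to the TSS of another gene, was not checked.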

How the data were processed

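The authors deposited ChIP-seq regions on build dm6 as an IDR list, a pooled list and 1 list per replicate. Signal, with the summit offset, is as the authors deposited it. Each pooled or replicate list was derived from alignments and a further file whose role is not stated, and the IDR list from those lists, per the deposited text files. The sources used here do not name the peak caller, its version or its thresholds. The dm3 lists were not used. No region ended beyond its chromosome in the Release 6 sequence. Gene models came from Ensembl release 115, and sequence was read with pysam 0.24.0. All counts use nuclear regions and every annotated TSS. Copies were classed as main, single or paralogue from general knowledge, and the classes, members and lists were chosen with earlier results of these data known. All members, genes sharing their promoter summits, and partner and lysosomal genes with an IDR promoter summit are named. Cam, subdued, Cyt-c-p and Mitf were named after their values were seen. With 2 replicates of 1 condition, no test was run. On simulated data the window search found every summit planted up to 1000 bp from a TSS and none beyond.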

Additional observations from a re-analysis of the deposited data

How the results depend on the processing

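The counts of members, of main and single-copy genes and of paralogues with an IDR promoter summit stayed within 1.5 times their value with windows of 250, 500 and 2000 bp, with region overlap in place of the summit and with 1 TSS per gene. Only Vha14-1 was lost, at 250 and 500 bp. In the 1901 IDR peaks of higher signal, 5 members and 4 main or single-copy genes were left (12.1% of all genes), since fewer peaks were counted. Counting only the gene with the nearest TSS, an alternative chosen after seeing the data, left 5 and 4, beside 15% of all genes. With replicate 3 or replicate 1 alone the counts were 9 and 9 for members, beside 20.4% and 21.2% of all genes. They were 6 and 7 for main or single-copy genes, and 0 to 1 for paralogues, the 1 being Vha100-5 in replicate 3. The median signal of the members with a region was 76.6 in the pooled list and 36.1 to 39.5 in the replicates, whose scales differ. With a window of 100 bp in place of 50 bp around the summits of IDR promoter peaks, 2 members in place of 1 held an exact AP-1, DRE or CACGTG word. The dm3 alternative was not run, because the gene positions used are on dm6. No paired analysis was possible because there is 1 group. Read depth is unknown, so the lowest listed signal limits what can be seen.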
